A study of Mus musculus with 3 samples.

Results

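The transcripts described here were annotated as retained-intron transcripts, a class of noncoding models of a gene that keep sequence which other models of the same gene splice out. They were selected on their expected counts: a transcript was a member when it had at least 100 expected counts (a fractional estimate of its reads) in each of 3 libraries in the first of 2 deposited quantifications. Of the 21848 retained-intron transcripts in the annotation, in 9421 genes, 2405 (11.0%) were members, and they belonged to 1592 genes. Their levels in that quantification are therefore given as a description. The libraries were ribosomal RNA-depleted total RNA-seq of RNA bound to chromatin in macrophages grown from the bone marrow of C57BL/6J mice and given lipid A at 100 ng/ml for 50 min. Lipid A is the lipid anchor of lipopolysaccharide and a ligand of Toll-like receptor 4. All 3 libraries formed 1 group, labelled biological replicates 1, 2 and 3 and carrying the same donor code, and no untreated cells or other fractions were analysed here. The spread between libraries may therefore be technical in part, and no contrast between treatments could be made.

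Introns are usually removed while the RNA is still being made, and RNA attached to chromatin holds nascent as well as finished but unreleased transcripts. An intron can also stay in an otherwise spliced and polyadenylated RNA, which then often remains in the nucleus as a detained-intron transcript or, once exported, is degraded. Kinases and SR proteins of the splicing machinery are textbook examples of genes that control their own output this way. In these tables, reads from unspliced precursor RNA and reads from a lasting retained intron cannot be told apart, because both are assigned to the same annotated model.

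The first quantification held 10496423, 17687063 and 14805800 expected counts in replicates 1, 2 and 3, made from 1000, 250 and 500 ng of RNA. Ribosomal DNA-like and mitochondrial genes took 9.18% of these counts in replicate 1, 22.7% in replicate 2 and 21.7% in replicate 3. All 10 macrophage marker genes had at least 1 TPM (a level corrected for transcript length and library size) in each library and summed to between 731 and 763 TPM. The 4 T cell and 3 mast cell markers were listed at 0 in each library, and the B cell, natural killer cell, neutrophil, erythroid and fibroblast markers summed to at most 1.02 TPM in any library. Dendritic cell markers summed to 2.78 to 4.03 TPM and endothelial markers to 41.8 to 62.5 TPM, with 1 gene of each set reaching 1 TPM in each library.

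The class name was first checked against the annotated models. An intron of another transcript of the same gene lay whole inside 1 exon of 1080 members (44.9%), against 30.8% of the 19443 other retained-intron transcripts. Of these, 544 members held exactly 1 such intron and 536 held at least 2, up to 18. Introns with different annotated ends were counted separately even where they overlapped. The counts of introns per member can therefore exceed the number of separate stretches kept. The 1325 members without a whole intron mostly began or stopped inside one: in 608 only the 3′ end lay in an intron, in 252 only the 5′ end, in 459 both ends, and in 6 neither. Members were also longer than the other transcripts of the class, with a median of 2840 against 817 bases, and a minimum count by itself favours long transcripts. A median of 56.1% of a member's bases lay in no other transcript of its gene, against 31.8% for the others.

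The introns held whole by members came to 2163 after removal of repeats, with a median length of 553 bases and quartiles of 206 and 1154. Introns held whole only by other retained-intron transcripts were shorter, with a median of 248 bases over 8265 introns, whereas the other introns of the members' own genes had a median of 1643 bases over 29961 introns. The GC content had a median of 46.1% in the members' introns and 52.0% in the introns of the other retained-intron transcripts. Members were also the longer transcripts, as given above, and these gaps were not adjusted for transcript length. In the members' introns, 97.3% began with GT and ended with AG, 1.48% began with GC and ended with AG, and 1 was an AT-AC intron. In the introns of the other retained-intron transcripts GT-AG made up 97.7% and GC-AG 1.44%.

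Short introns held whole by members can be shown in full. The examples below are 2 introns of Cxcl1-202 and 1 each of Cd83-202, Hif1a-204, Clk1-204 and Ddx5-202, members described further on, in the direction of transcription and as read from the member's own sequence in the GENCODE M21 transcripts (GRCm38, mm10). Capitals mark the first 6 and last 2 intron bases, which pair with or are bound by the splicing machinery. The coordinates are chr5:90891381-90891469 (plus strand, 89 bases) and chr5:90891594-90891708 (plus, 115 bases) for Cxcl1, chr13:43785251-43785345 (plus, 95 bases) for Cd83, chr12:73928132-73928213 (plus, 82 bases) for Hif1a, chr1:58417180-58417266 (minus, 87 bases) for Clk1 and chr11:106784019-106784100 (minus, 82 bases) for Ddx5. Each lies between coding exons of its gene.
Cxcl1-202, 89 bases: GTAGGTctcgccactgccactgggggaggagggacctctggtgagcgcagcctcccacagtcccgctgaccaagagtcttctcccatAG
Cxcl1-202, 115 bases: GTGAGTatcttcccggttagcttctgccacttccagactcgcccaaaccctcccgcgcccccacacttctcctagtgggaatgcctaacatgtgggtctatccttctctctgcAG
Cd83-202, 95 bases: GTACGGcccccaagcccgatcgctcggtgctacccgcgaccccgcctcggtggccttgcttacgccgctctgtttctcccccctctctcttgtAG
Hif1a-204, 82 bases: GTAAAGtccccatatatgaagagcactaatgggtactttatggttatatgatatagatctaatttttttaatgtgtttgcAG
Clk1-204, 87 bases: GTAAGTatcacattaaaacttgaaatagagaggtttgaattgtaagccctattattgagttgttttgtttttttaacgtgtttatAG
Ddx5-202, 82 bases: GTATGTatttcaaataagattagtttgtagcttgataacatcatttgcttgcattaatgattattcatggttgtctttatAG

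A small group of the held introns carried the 5′ site of the minor (U12-type) spliceosome, which processes a rare class of introns. The first 8 intron bases, read on the transcript's strand only, were GTATCCTT or ATATCCTT in 15 of the 2163 introns (0.693%) and in 29 of the 8265 introns held only by other retained-intron transcripts (0.351%). They included introns in members of Rfx5, Gbp5, Gbp6, Rfc5, Mau2, Derl2, Snrnp48, Mapk8, Myh9 and Sms, all named after the motif search, and the Sms intron was the AT-AC one. Gbp5 and Gbp6 encode interferon-inducible guanylate-binding proteins, Mapk8 encodes a signalling kinase, and Snrnp48 encodes a protein of the U11/U12 particle that recognises such 5′ sites. In Gbp5-205 the intron is 597 bases long (chr3:142503126-142503722, plus strand) and its 5′ junction, with the last 3 exon bases in lower case, reads gcaGTATCC. Snrnp48-204 had 503, 632 and 482 expected counts in replicates 1, 2 and 3 and 34.4% ± 3.23 of gene TPM (35.5% ± 3.66 in the second quantification). The intron with this motif in Snrnp48-204 was not an intron of a protein-coding transcript of the gene and did not lie between coding exons. Gbp6-202 had 837, 479 and 636 expected counts and 31.5% ± 5.47 of gene TPM.

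Of all expected counts, the retained-intron class as a whole received 19.0% in replicate 1, 13.0% in replicate 2 and 13.3% in replicate 3 (15.1% ± 3.37, SD, n = 3), and members held 84.8% ± 1.10 of the class. In the second quantification the class held 18.4%, 12.7% and 13.2% of the estimated counts. Among the expected counts of protein-coding genes alone, it held 27.7%, 21.1% and 22.1%, whereas nonsense-mediated decay transcripts, another class of unproductive models, held 3.00%, 3.21% and 3.24%. Replicate 1 was thus the highest for the class by each of these measures, and replicates 2 and 3 lay closer to each other than to it. Members made up 26.2% of the 9183 transcripts of any class that reached the minimum.

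**Figure D1:**
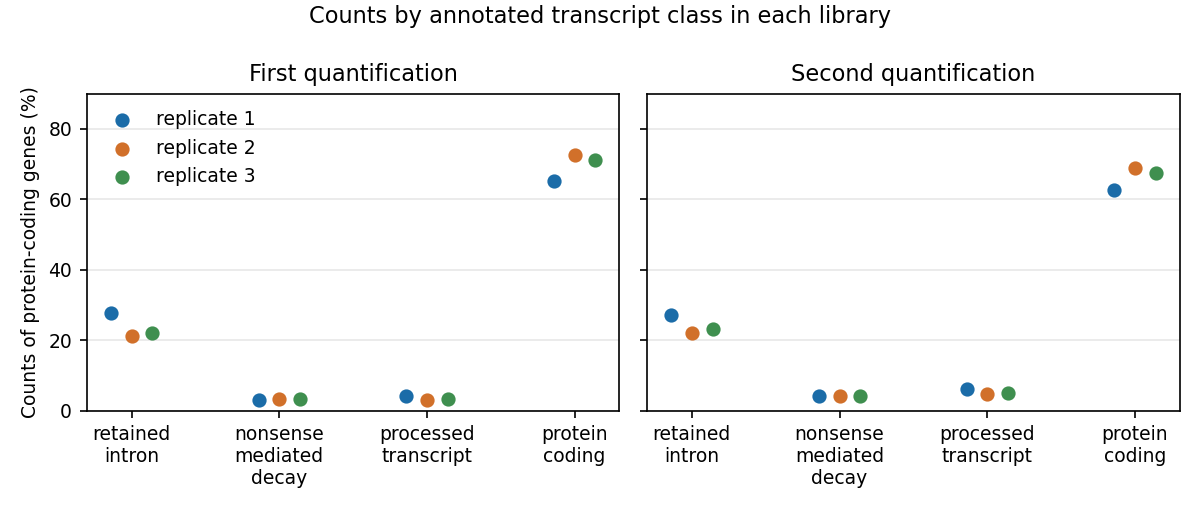
Percent of the counts of protein-coding genes (y axis) assigned to 4 annotated transcript classes (x axis) in each library, in the first (left) and second (right) quantification; each point is 1 library. Retained-intron transcripts held 21.1% to 27.7% in the first quantification, with replicate 1 highest, and protein-coding transcripts were lowest in replicate 1.

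The share of a transcript in its gene's summed TPM describes how much of the gene's RNA the model was given. The median member share was 23.8%, 20.0% and 20.6% in replicates 1, 2 and 3 in the first quantification (21.5% ± 2.03, SD, n = 3) and 18.3%, 16.4% and 16.6% in the second (17.1% ± 1.06). The 332 nonsense-mediated decay transcripts that reached the same minimum had median shares of 16.6% ± 0.42 and 13.7% ± 0.73, and the 5246 protein-coding transcripts had 31.1% ± 1.81 and 19.9% ± 1.35. Members that held a whole intron had a median of 21.1% ± 2.08 and those without 21.9% ± 1.96 in the first quantification. In the second these were 16.6% ± 1.06 and 17.4% ± 0.92. Both groups came from the same libraries, so these SDs do not measure the error of the gap, which was not tested. Levels per transcript were mostly low, with a median mean of 8.79 TPM, 1307 members under 10 TPM and 83 at 100 TPM or more.

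Between the quantifications the order of the members was similar, with a Spearman correlation of 0.880 over the 2404 members of genes with 2 or more transcripts. This is a description over transcripts, since both estimates came from the same reads. The share was higher in the first quantification for 1848 members, by a median of 3.39 percentage points over all, and 1303 members lay within 5 points. More than 20 points separated the estimates for 130 members, 113 of them higher in the first quantification and 17 in the second. These counts were not taken over other classes, so nothing particular to members is read from them. The median share was also lower in the second quantification for protein-coding (19.9% against 31.1%) and nonsense-mediated decay transcripts (13.7% against 16.6%) with the minimum.

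**Figure D2:**
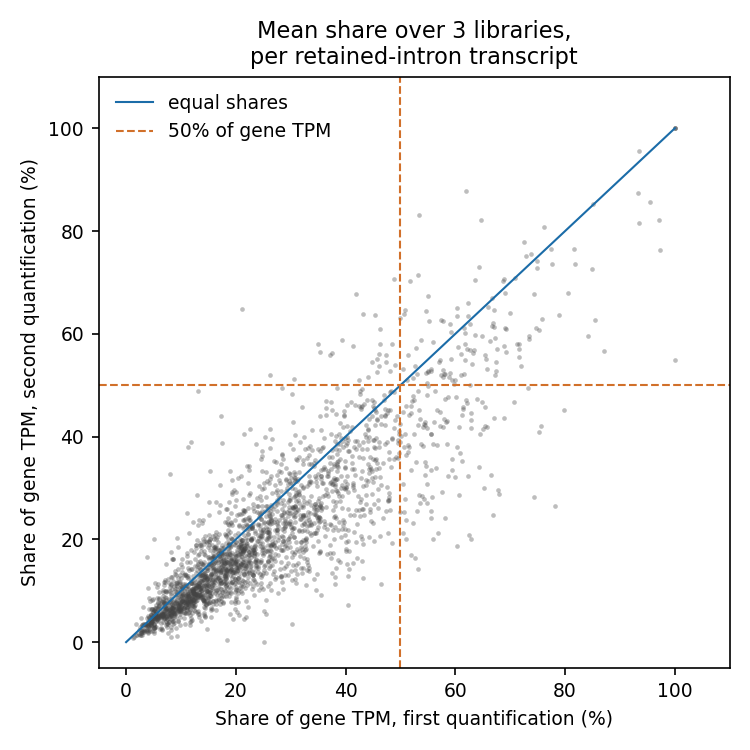
Mean share of gene TPM over 3 libraries in the first (x axis, %) against the second quantification (y axis, %), 1 point per member. Most points lie below the line of equal shares, and the dashed lines mark 50% of gene TPM.

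At least 50% of the gene's TPM in each library was held by 179 of 2404 members (7.45%) in the first quantification, against 15.8% of all transcripts with the minimum, and by 115 (4.78%) in the second, against 8.79%. Both percentages of members were below those of all transcripts. Both quantifications put 82 members, in as many genes, at or above 50% in each library, and 41 of the 82 held a whole intron. The member was the largest transcript of its gene in each library in 549 cases in the first quantification (22.8%, against 31.5% of all transcripts with the minimum), 409 in the second (17.0% against 19.9%) and 296 in both (12.3% against 15.8%).

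The 82 members had a median of 13.3 TPM, from 1.88 to 350.6, and 27 of them were models of 1 exon. The following 5 were named after their values were seen. Orai2-204, from the gene of a plasma membrane calcium channel, had 204, 124 and 189 TPM and 70.2%, 74.2% and 68.4% of gene TPM, with 70.8% ± 2.51 in the second quantification. Itpkb-202, from an inositol trisphosphate kinase gene, was a single exon of 4593 bases with 140, 99.8 and 127 TPM and 72.8%, 54.7% and 60.4%. The share of Itpkb-202 was thus highest in replicate 1, and the share of Orai2-204 was highest in replicate 2. Ifi205-202, from an interferon-inducible gene of the AIM2-like receptor cluster, had 122, 53.8 and 74.8 TPM and 61.9%, 53.2% and 56.5%. Il17ra-203, from the gene of the interleukin-17 receptor, had 44.2, 39.7 and 40.5 TPM and 73.3%, 75.2% and 71.8%, with 59.5% ± 1.27 in the second quantification. H2-Q7-206, from a class I major histocompatibility gene with close paralogues, held 8 annotated introns, some of them overlapping. It had 62.0% ± 4.96 in the first and 87.8% ± 0.69 in the second quantification.

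Several members had been given nearly all of their gene. H2-Q10-203, from a class I major histocompatibility gene with near-identical neighbours, held 100% in both quantifications at 2.30, 1.41 and 1.94 TPM, and reads from its paralogues may be among them. Gm43305-201, from a gene not annotated as protein-coding, held 100% in the first and 99.97% ± 0.03 (SD, n = 3) in the second quantification. Its level differed widely between them, at 62.7, 20.1 and 36.7 TPM in the first and 526, 208 and 308 TPM in the second. Bbs10-202, from a gene for a chaperonin-like protein needed for cilia, held 93.7%, 98.2% and 94.4%, and Tmem132a-203 held 96.7%, 92.8% and 91.0%. Ccdc59-202 and Tmed7-202, the second from a gene for a protein of vesicle traffic, had means of 97.0% and 97.3% in the first quantification and 82.1% ± 10.9 and 76.2% ± 5.25 in the second. Srp19-205, from the gene for a signal recognition particle protein, averaged 93.4% and 95.6%, and Txk-205, from a Tec-family kinase gene, 93.2% and 87.4%. Psmb7-202, from a proteasome subunit gene, averaged 87.0% ± 5.35 in the first and 56.6% ± 11.3 in the second quantification.

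For other members the share depended on the quantification. Daam2-203, from a formin gene of Wnt signalling, was given 100% in each library of the first and 53.8%, 56.7% and 54.2% in the second. Abhd17c-203, from a gene for a depalmitoylating enzyme, averaged 78.1% and 26.6%, Pafah1b1-203, from the gene of a dynein regulator, 74.4% and 28.3%, Ube2e2-204, from a ubiquitin-conjugating enzyme gene, 62.9% and 19.99%, and the Notch receptor member Notch1-205 66.8% and 24.8%. The opposite held for Tmcc1-211 (21.1% in the first, 64.8% in the second), Ctsb-202 of the cathepsin B gene (13.0% and 48.9%), Tor1b-203 (53.3% and 83.1%), Notch2-202 (11.7% and 38.9%) and the class I gene member H2-Q5-203 (17.3% and 44.1%). For each of these 10 members the 3 libraries of the first quantification did not overlap those of the second. The 10 were named for the largest differences between the quantifications in either direction. Their separation therefore follows largely from the choice, and nothing is read from it.

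Genes often had several members, and their shares add up. A single member was found in 1096 genes, 2 members in 310 and 5 or more in 35. Summed over all retained-intron transcripts of a gene, the median over 1591 genes was 56.9%, 50.5% and 49.7% of gene TPM in replicates 1, 2 and 3 in the first quantification (52.4% ± 3.94) and 49.3%, 45.9% and 45.8% in the second (47.0% ± 2.02). The sum was at least 50% in each library for 707 of the 1591 genes in the first, 607 in the second and 515 in both. These genes were included because such a transcript reached the minimum, which by itself favours a high sum. The same sum was not taken over other genes, so nothing is read from its size.

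Ankrd17, an ankyrin-repeat protein gene, had the most members with 8. Together they held 69.3%, 69.2% and 73.6% of its TPM, and single ones averaged between 3.86% (Ankrd17-207) and 21.4% (Ankrd17-213). The 7 members of Rbm39, a splicing factor gene, held 48.4%, 44.8% and 45.6% of its TPM in the first quantification and 33.3%, 34.2% and 33.9% in the second, none over 8.05% on average in the first. The 7 members of Ubap2l, a gene for an RNA-binding protein linked to stress granules, held 39.3%, 47.9% and 44.7%. Lilr4b, a receptor gene, also had 7 members, which held 81.4%, 82.8% and 79.5%. In Ccnl1, the gene for cyclin L1 of the nuclear splicing compartment, named after its values were seen, 6 members held 74.2%, 69.7% and 64.5%.

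Of the 10 members with the highest mean TPM, 6 came from Lilrb4a and Lilr4b, and the others were Sirpa-212, Il1b-203, Tnfaip2-207 and Sod2-203. Lilrb4a-206, from an inhibitory receptor gene of the leukocyte immunoglobulin-like family, had 1169, 566 and 900 TPM. Lilrb4a-209, which held 4 annotated introns, some of them overlapping, had 886, 475 and 611 TPM. Lilr4b, a neighbouring and similar gene, gave Lilr4b-207 at 558, 480 and 606 TPM and Lilr4b-206 at 525, 419 and 412 TPM. Reads could have been divided between these paralogues and between their models, since Lilrb4a-209 had 0% of its bases to itself. The quantifications differed here as well, with 41.9% ± 3.11 and 67.8% ± 3.72 of gene TPM for Lilrb4a-206. The members Lilrb4a-207 (429, 240 and 295 TPM) and Lilr4b-208 (424, 225 and 302 TPM) completed the group. Sirpa-212, from the gene of the receptor for the CD47 "do not eat" signal, had 553, 457 and 526 TPM and 58.7% ± 3.79 of gene TPM. Both of its ends lay in introns.

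**Figure D3:**
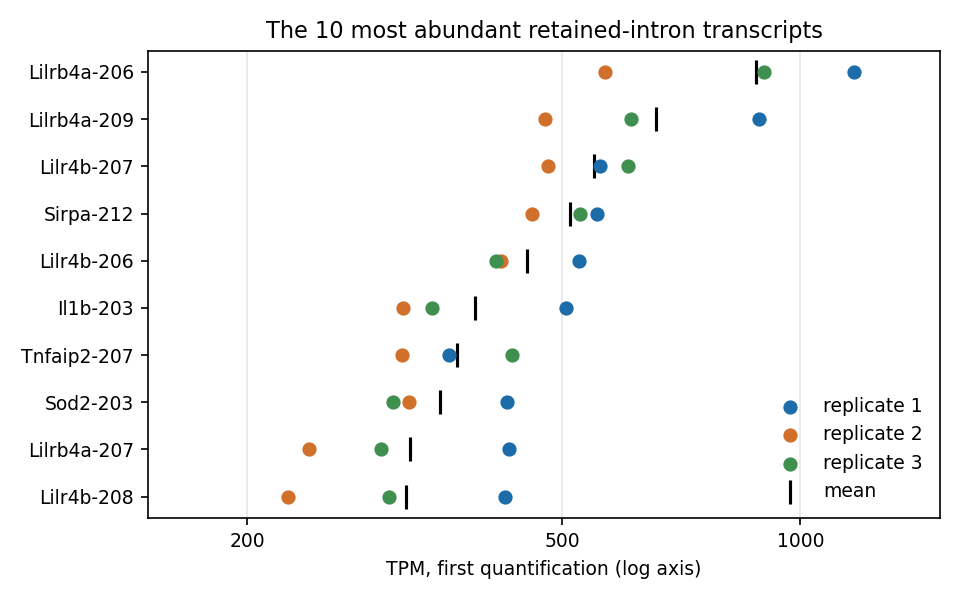
TPM in the first quantification (x axis, log scale) of the 10 members with the highest mean (y axis); coloured points are libraries and the black tick is the mean. Lilrb4a-206 spans 566 to 1169 TPM and Sirpa-212 only 457 to 553.

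Among genes of the NF-kB pathway, the transcription factor system that acts downstream of Toll-like receptor 4, and its targets, 22 of 25 genes with the minimum and an annotated retained-intron transcript had a member, against 41.9% of all such genes. This count and those in the lists below, each set beside the same 41.9%, follow from the minimum, and nothing is read from them. The 43 members had a median share of 19.8% in the first and 16.7% in the second quantification, and 7 and 4 of them held at least 50% in each library. Of all members, 7.45% and 4.78% did so, and of all transcripts with the minimum 15.8% and 8.79%. These percentages also stand beside the counts at 50% in the lists below, and nothing is read from those counts. Il1b-203, from the gene of the cytokine interleukin-1 beta, had 506, 314 and 343 TPM and 60.6%, 58.6% and 50.8% of gene TPM in the first quantification. Its 3 libraries lay lower in the second, at 36.3%, 42.7% and 36.0%. It held an intron of 532 bases (chr2:129369752-129370283, minus strand) with the 5′ junction cagGTCAGT. Sod2-203, from the gene of mitochondrial superoxide dismutase, had 426, 320 and 306 TPM and 71.5%, 70.6% and 67.6% of gene TPM, and the second quantification gave 64.0% ± 2.46. It was 334 bases long and its 5′ end lay in an intron. Tnfaip2-207 had 360, 314 and 431 TPM but 17.0% ± 4.04 of its gene, and Malt1-206, from the gene of a paracaspase of NF-kB signalling, had 530, 137 and 224 TPM and 30.5% ± 6.81.

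Both quantifications gave 2 further members of this list, Cxcl1-202 and Ccl5-202, at least 50%. These, and Cd83-202, Dusp2-202 and Hif1a-204 from genes outside the list, were named after their values were seen. Cxcl1-202, from a neutrophil-attracting chemokine gene, consisted of 1 exon of 1871 bases that held 3 introns, of 89, 115 and 718 bases. It had 130, 76.8 and 115 TPM and 77.4%, 78.1% and 69.3% of gene TPM, with 72.8% ± 4.06 in the second quantification. Ccl5-202, from another chemokine gene, had 71.9%, 74.2% and 77.2% at 80.0, 23.1 and 71.5 TPM, so that its share varied less than its level, which was lowest in replicate 2. In RNA from a whole culture, fewer responding cells and less RNA per cell cannot be told apart. Cd83-202, from the gene of a surface protein of activated antigen-presenting cells, had 246, 121 and 166 TPM and 91.2%, 80.7% and 82.6% of gene TPM. The second quantification gave 72.7% ± 1.09. Only 4.40% of the bases of Cd83-202 lay in no other transcript of its gene. Dusp2-202, from a MAP kinase phosphatase gene, had 59.1, 38.0 and 56.3 TPM and 62.9%, 58.7% and 55.8%. Hif1a-204, from the gene of the oxygen-responsive transcription factor, had 28.1, 21.2 and 14.1 TPM and 61.7% ± 4.80. All 5 were picked from the members at 50% or more in each library of both quantifications, so their high shares follow from the choice.

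The interferon list gave 18 members in 12 of 18 genes (66.7%, against 41.9%). Their median shares were 28.1% and 21.1%, and 2 and 1 of them held 50% or more. Parp14-202 and Parp14-203, from the gene of an ADP-ribosyltransferase, had 152, 70.8 and 123 TPM and 143, 39.7 and 83.3 TPM. Irf1-210, from the gene of a transcription factor of interferon responses, had 143, 106 and 80.6 TPM and 29.9% ± 3.37 of gene TPM. Gbp5-205, which held the U12-type intron above, had 147, 32.0 and 73.8 TPM, yet its share of 36.2%, 32.4% and 28.0% varied less than its level.

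Macrophage genes gave 12 members in 8 of 10 genes (80%, against 41.9%), with median shares of 28.7% and 24.0%. Cd44-209, from the gene of the hyaluronan receptor, had 377, 173 and 366 TPM and 57.7% ± 5.23 of gene TPM in the first but 41.9% ± 6.01 in the second quantification. Clec4d-202, from a C-type lectin receptor gene, had 296, 221 and 288 TPM and 63.8%, 61.9% and 59.1%, and the second quantification gave 61.1% ± 2.30. Cybb-202 and Cybb-203, from the gene of the phagocyte NADPH oxidase, had 33.5% ± 6.88 and 26.5% ± 2.29.

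Of the SR proteins and Tra2 factors, which bind exonic enhancers and recruit the spliceosome, 12 of 13 genes (92.3%, against 41.9%) had 25 members. Their median share was 21.7% in the first and 14.9% in the second quantification, from 2.37% to 60.3%. In each library 1 reached 50%, beside 7.45% of all members in the first quantification. That member, Srsf6-204, named after its values were seen, had 28.8, 17.0 and 23.3 TPM, 62.1%, 62.4% and 56.4% of gene TPM and 65.1% ± 3.22 in the second quantification. It held introns whole with the 5′ junction gcaGTGAGT. Srsf5-212 was the most abundant, at 190, 135 and 204 TPM and 35.1% ± 2.35, and had 0% of its bases to itself. Son-213, from the gene of a nuclear speckle protein, had 132, 69.2 and 77.0 TPM and 34.95% ± 5.19, and Srsf11-213 and Srsf11-208 had 25.2% ± 5.05 and 21.7% ± 1.60. Outside the list, Arglu1-204, from a gene for an arginine- and glutamate-rich RNA-binding protein and named after its values were seen, had 26.3, 15.7 and 22.7 TPM and 89.7%, 76.7% and 78.9% of gene TPM.

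The CLK and SRPK kinases, which phosphorylate SR proteins, had 11 members in 5 of 6 genes (83.3%, against 41.9%). None of these members reached 50% in each library, beside 7.45% of all members in the first quantification. Their median shares were 15.1% and 11.0%. Clk1-204 had 54.6, 35.6 and 48.3 TPM and 22.3%, 20.0% and 20.0% of gene TPM (20.1% ± 0.26 in the second quantification). The protein-coding Clk1-201 had 33.1, 25.1 and 37.2 TPM and 14.3% ± 0.95, less than Clk1-204 in each library. In the paralogous gene Clk4, Clk4-213 had 17.8, 10.8 and 13.0 TPM and 21.2%, 20.7% and 24.0%. The protein-coding Clk4-202 had 8.94%, 17.8% and 16.3%, and the protein-coding Clk4-201 had 7.36%, 8.73% and 8.74%. The Clk4-202 model begins inside the later intron of the pair described below, so it is not a model that splices out that pair. The level of Clk1-204 in TMM-normalised CPM (counts after scaling for library size and composition) differed 1.08-fold and that of Clk4-213 1.16-fold between the highest and lowest library. Clk1-213 and Clk1-202 had 15.1% ± 1.47 and 13.0% ± 1.40.

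The Clk1 and Clk4 members held a corresponding pair of introns whole, around an exon of 91 bases in each gene. The intron before the exon is 871 bases long in Clk1 (chr1:58420212-58421082, minus strand) and 1055 in Clk4 (chr11:51272023-51273077, plus strand), and the one after it 387 (chr1:58419734-58420120) and 391 bases (chr11:51273169-51273559). Their 5′ junctions are shown because they match between the paralogues in the intron part. Lower case marks the last 3 exon bases and capitals the first 6 intron bases.
Clk1-204, before the exon: gggGTATGA
Clk4-213, before the exon: tcgGTATGA
Clk1-204, after the exon: gatGTATAG
Clk4-213, after the exon: gatGTATAG
Both differ from GTAAGT, the first 6 bases of the short Clk1 intron printed above.

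**Figure D4:**
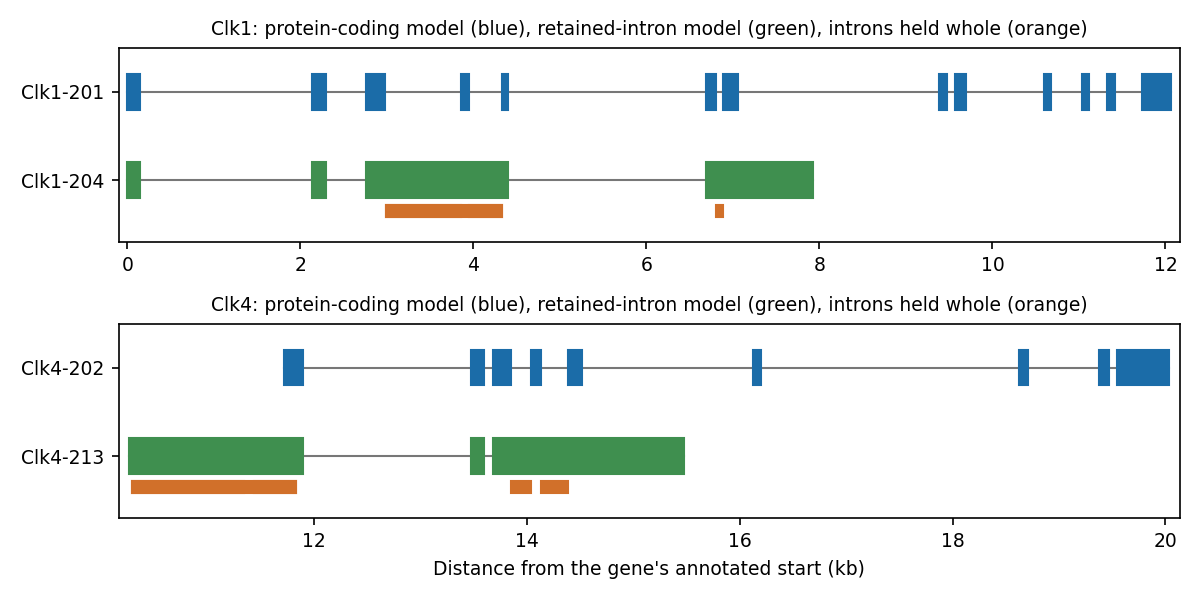
Annotated exons (boxes) of the protein-coding (blue) and retained-intron (green) models of Clk1 (top) and Clk4 (bottom) against distance from the gene's start (x axis, kb). Orange bars mark introns of other models held whole by the green one. Overlapping introns merge, so the bar over the pair around the 91-base exon is continuous. The Clk4-202 model begins inside the later intron of the Clk4 pair and does not splice out that pair.

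The hnRNP and other RNA-binding splicing factors had 60 members in 24 of 32 genes (75%, against 41.9%). Their median shares were 14.4% and 11.7%, and none held 50% in each library. Hnrnpa2b1-208 had 174, 105 and 148 TPM and 25.2% ± 3.37 of gene TPM, and Hnrnpa2b1-211 119, 65.2 and 101 TPM. Hnrnpll-207 and Hnrnpll-204, from the gene of a regulator of CD45 splicing, had 102, 52.8 and 73.6 TPM and 88.5, 59.8 and 77.9 TPM, with 25.6% ± 3.34 and 25.8% ± 0.76. Core spliceosome genes had 27 members in 11 of 19 genes (57.9%, against 41.9%), with median shares of 18.2% and 17.8%. Sf3b1-203, from the gene of the branch-site binding subunit, held 4 annotated introns, some of them overlapping. It had 130, 74.0 and 112 TPM and 36.8%, 25.8% and 29.6%. Snrnp70-216, from the gene of a U1 particle protein, had 24.6, 29.5 and 32.0 TPM and 18.2% ± 2.90, and U2af2-207 25.2% ± 3.19.

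DEAD- and DEAH-box helicases, which remodel RNA and its protein complexes, had 17 members in 12 of 25 genes (48%, against 41.9%). Their median shares were 18.5% and 17.1%. Ddx6-202 had 22.2, 11.6 and 15.4 TPM and 51.3%, 47.1% and 46.0% in the first quantification, and 54.9%, 52.5% and 51.0% in the second. Ddx39b-204 had 40.3% ± 4.76 and Dhx15-204 30.5% ± 2.23. Ddx5-202, which held the 82-base intron above, had 154, 52.3 and 54.0 TPM and 28.1%, 14.8% and 12.6%, so that replicate 1 stood apart. Its gene differed 1.06-fold in TMM-normalised CPM. Ogt, the gene of the O-GlcNAc transferase and a known case of a detained intron, gave 1 member, Ogt-204, at 55.5, 19.7 and 35.2 TPM and 29.0%, 14.9% and 20.7%. Mat2a, known for the same, had none. Genes not annotated as protein-coding gave 28 members in 21 genes, a list made by membership, led by Gpr137b-ps-201 at 86.2, 48.7 and 58.0 TPM.

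Between libraries, members were shifted towards replicate 1. The median of a member's log2 TMM-normalised CPM minus its mean over libraries was 0.14, -0.08 and -0.06 in replicates 1, 2 and 3, whereas protein-coding transcripts had -0.13, 0.05 and 0.08. The CPM was highest in replicate 1 for 1375 members (57.2%), against 41.3% of all transcripts with the minimum. With library totals in place of TMM scaling the values were 81.2% and 63.4%, since that scaling moved the median of all these transcripts in replicate 1 from 0.00 to 0.24. The share of gene TPM, which needs no scaling between libraries, was highest in replicate 1 for 1530 of 2404 members (63.6%), against 43.5%, and for 1361 in the second quantification (56.6%, against 38.7%). Replicate 1 also had the most starting RNA, the fewest counts and the lowest fraction of ribosomal DNA-like and mitochondrial counts. Their part in the shift was not tested, and with 1 library per amount of RNA they cannot be told apart.

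**Figure D5:**
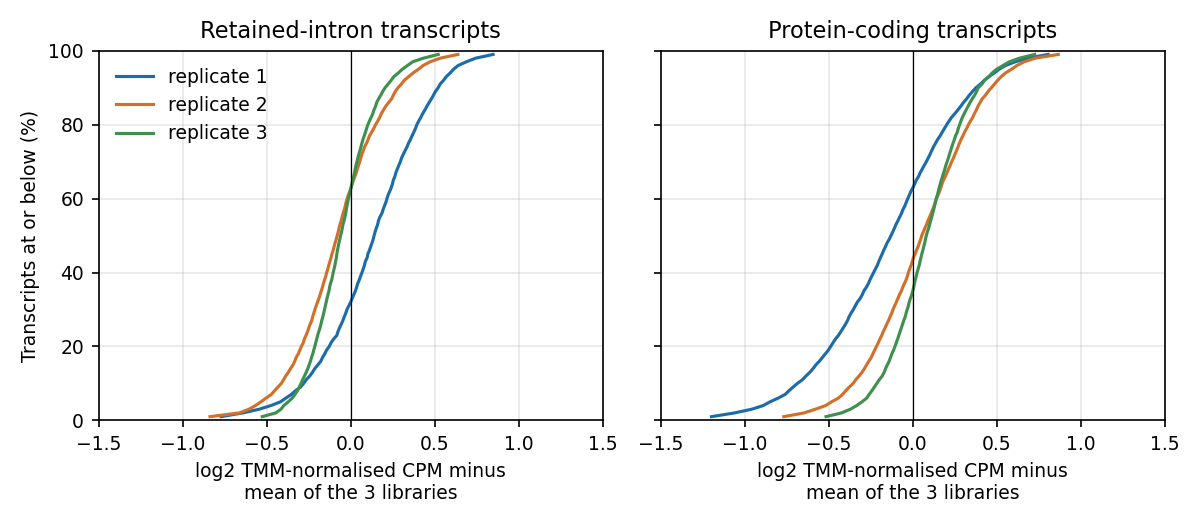
Cumulative percent of transcripts (y axis) against log2 TMM-normalised CPM minus the mean of the 3 libraries (x axis), for members (left) and protein-coding transcripts with the minimum (right); each line is 1 library. For members the replicate 1 line is shifted to the right (median 0.14), and for protein-coding transcripts to the left (median -0.13).

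The TMM-normalised CPM was compared between the highest and lowest library of each transcript. Differences of at least 2-fold were found for 290 members (12.1%), against 18.9% of all transcripts with the minimum. Differences of at least 4-fold were found for 19 of the 2405 members, against 128 of all 9183 transcripts with the minimum. Without replicate 1 the 2-fold count was 41 (1.70%, against 2.60% of all), without replicate 2 it was 100 (4.16% against 9.02%) and without replicate 3 it was 235 (9.77% against 15.2%). The lowest library was replicate 1 for 72 of the 290, replicate 2 for 170 and replicate 3 for 48. Of the 1733 transcripts of any class that were at least 2-fold apart, 986 were lowest in replicate 1, 589 in replicate 2 and 158 in replicate 3. For 86 of the 290 members the whole gene was also at least 2-fold apart, and for 63 the share. Of the 290, 8 were in both counts and 149 in neither. This split was not made for other transcripts, and nothing is read from it. With 1 group there is no test of any of these differences.

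The 5 members with the largest differences were of both kinds. Folds of members and genes are of TMM-normalised CPM and are not ratios of the TPM printed beside them. Rasa4-209, from a Ras GTPase-activating protein gene, had 3.76, 26.1 and 31.2 TPM and differed 10.2-fold, while its gene differed 1.32-fold and its share was 2.22%, 21.3% and 16.1%. Clec4e-203, from the gene of the lectin receptor Mincle, had 4.23, 17.3 and 20.2 TPM, a 6.00-fold difference, while its gene differed 1.55-fold and was highest in replicate 1. Ifih1-205, from the gene of the RNA sensor MDA5, had 35.7, 3.48 and 28.6 TPM, a 6.94-fold difference, and its gene differed 4.18-fold with a share of 12.4%, 7.65% and 12.9%. Cmpk2-204, from an interferon-inducible kinase gene, had 37.7, 4.08 and 24.5 TPM, a 6.27-fold difference, with the gene 4.79-fold apart. Fchsd2-210 had 51.5, 5.87 and 14.2 TPM and was 5.96-fold apart, and its gene 2.71-fold. Of the 18 interferon-list members, 9 were at least 2-fold apart, against 12.1% of members and 18.9% of all transcripts with the minimum, and 7 of these were lowest in replicate 2. The count was 2 without replicate 2 (9.02% of all transcripts), 4 without replicate 1 (2.60% of all) and 8 without replicate 3 (15.2% of all).

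The quantifier's own uncertainty for members was small by the standard deviation of the count and wider by the bounds of TPM. The deposited standard deviation of the count had a median of 2.12% ± 0.12 of the count for members, 8.66% ± 0.71 for nonsense-mediated decay transcripts and 4.95% ± 0.45 for protein-coding transcripts. The upper over the lower deposited bound of TPM had medians of 1.30, 1.29 and 1.31 for members in replicates 1, 2 and 3. For protein-coding transcripts these were 1.41, 1.33 and 1.35, and for nonsense-mediated decay transcripts 1.60, 1.47 and 1.53. Both measures cover the division of reads between annotated models and not reads from unannotated RNA. Members overlapped exons of another gene on the same strand in 85 cases and on the opposite strand in 320, and since the strand setting was not given, reads there could belong to the other gene. A small RNA gene lay within 60 members.

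The minimum cut through a continuous range. Just inside it were Gnl3-207, Fmr1-212 and Ppp3cb-209, with mean shares of 17.2%, 11.2% and 9.54%. Just outside were Poldip3-204, Fam118b-207 and Stat2-206, whose lowest libraries had 99.89, 99.84 and 99.79 expected counts and whose shares in replicate 1 were 35.8%, 23.6% and 27.4%.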

How the data were processed

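Each of 3 libraries had 2 transcript tables and a gene table made by the authors. The first quantification held deposited expected counts, TPM and an isoform percent, per the file headers. That percent was only checked against the share recomputed from TPM here, which differed by at most 0.35 points for members. The deposited bounds of TPM and standard deviation of the count, per the file headers, were used as a signal of the quantifier's own spread. The second quantification held deposited estimated counts and TPM, per the file headers. Per the deposited notes, GENCODE M21 on mm10 was used, and the first quantification came from a transcriptome alignment and the second from the reads and an index. Aligner, quantification tools, versions and strand setting: not given in the sources used here.

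Classes came from the identifiers of the second quantification and exons, positions and sequences from GENCODE M21. An intron was held whole when an intron of another transcript of the same gene lay inside 1 exon. Expected counts were rounded for TMM factors (edgeR 4.0.16) and DESeq2 1.42.0 size factors, in R 4.3.3, over transcripts with at least 10 counts in each library; no test was run. Python 3.11.15 and pandas 2.3.3 did the rest, and the scripts were tested on simulated data. The tables hold no molecular identifiers, so counting error alone understates the error of a count.

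Named were the 10 members highest in TPM and the 10 highest in share, the 5 at each end of the difference between quantifications, the 5 with the largest fold between libraries, the 3 genes with most members, the 3 transcripts on each side of the minimum and up to 4 members by TPM of each gene list. Members, lists and rule were chosen with earlier results of these data known. Settings tried were other minimums, scalings and intron sets, each library left out, and no filter. Splice sites of introns not held by a retained-intron transcript, and sequences on chromosome 18, were not used here. Values of 2 genes are not reported here.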

Additional observations from a re-analysis of the deposited data

How the results depend on the processing

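The number of members was 3757 with a minimum of 50 counts, 1399 with 200 and 4260 when the minimum was applied to the second quantification, and 2445 to 2689 with a library left out. The class held 7.47% of TPM in place of 15.1% of counts, 23.6% of the counts of protein-coding genes (an alternative chosen after seeing the data), and 13.1% to 16.1% with a library left out. The median member share was 17.1% in the second quantification and 10.7% with no filter on counts, and 20.3% to 22.2% with a library left out. Members with at least 50% of their gene numbered 115 in the second quantification, 296 when shares were taken from expected counts, and 194 to 205 with a library left out, where fewer libraries had to pass. Members at least 2-fold apart numbered 649 with library totals and 41 to 235 with a library left out, by construction a comparison of 2 libraries. The causes of the other changes were not tested. With DESeq2 size factors, with 0.5 added to each count and in the second quantification, the 2-fold count stayed within 1.5 times the value above, as did the count and median length of introns held whole when only introns of protein-coding transcripts, or only those of at least 30 bases (chosen after seeing the data), were used. No paired analysis was possible because there is 1 group.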
